A study of Homo sapiens with 3 samples.

Results

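The genes described here encode proteins that coat lipid droplets or control the release of fatty acids from them. They are the perilipins PLIN2, PLIN3 and PLIN5, the droplet fusion proteins CIDEB and CIDEC, the droplet protein HILPDA, and the lipase system of PNPLA2, PNPLA3, G0S2 and ABHD5. They were chosen by symbol from the deposited expression table, and all 10 were found among its 21572 genes, HILPDA under its older symbol C7orf68. RNA was sequenced from Hep-G2, an established human line derived from a hepatoma, in 3 libraries at passage 21. The control library came from cells with the control shRNA labelled SHC002, called the scramble in the series design. The others came from cells with different shRNAs against FTO, an RNA demethylase, and are called sh#2 and sh#7 here. The design text calls the knockdown stronger in sh#7 than in sh#2. No other treatment is labelled, and the cells were grown in DMEM with fetal bovine serum.

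A lipid droplet is a store of triglyceride and sterol esters wrapped in a phospholipid monolayer, and its coat proteins decide which enzymes reach the lipid. PNPLA2, also called ATGL, cleaves the first fatty acid from a triglyceride. ABHD5 activates it, and G0S2 and HILPDA inhibit it. In hepatocytes PLIN2 is the main coat protein and is degraded when it is not bound to a droplet, so its RNA and its protein need not move together. The adipocyte coat protein PLIN1 and hormone-sensitive lipase, encoded by LIPE, are typical of fat cells.

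Values are FPKM, a fragment number divided by transcript length in kilobases and by the mapped total, which allows levels of different genes to be set side by side within a library. Where 3 values follow each other, they are in the order control, sh#2, sh#7. Each group held 1 library, so the differences below carry neither a replicate check nor a p-value, and an effect of FTO cannot be told apart from an effect of a line. Single-fragment steps in low genes put the depth at roughly 41.9 (control), 43.2 (sh#2) and 41.8 (sh#7) M fragments, where M is mega. Intervals are exact (Clopper-Pearson) 95% intervals on fragments estimated in this way, and cover counting error only. FTO stood at 9.02 (control), 5.29 (sh#2) and 2.55 FPKM (sh#7), in the order that the labels give. Of 9 hepatocyte markers, all were detected in every library, with summed levels of 23740 FPKM (control), 17370 (sh#2) and 10160 (sh#7). Adipocyte markers were nearly absent: ADIPOQ, LEP, FABP4, LPL and ADRB3 were listed at 0 in every library, and of the 9 in that list only PPARG reached a mean of 1 FPKM.

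In the control library the droplet genes spanned a wide range. PLIN2 stood at rank 253 of all genes with 331 FPKM, followed by PLIN3 at 54.9 FPKM, CIDEB at 40.9 FPKM and PNPLA2 at 30.1 FPKM. HILPDA and PNPLA3 were at 13.6 and 9.79 FPKM, CIDEC and ABHD5 at 2.47 and 1.38 FPKM, and PLIN5 at 0.277 FPKM. G0S2 was listed at 0. This order was not the same in the other libraries: PNPLA3 exceeded HILPDA in sh#7, and ABHD5 exceeded CIDEC in both knockdown lines. The 10 genes together made up 484 FPKM (control), 333 (sh#2) and 258 (sh#7). PLIN2 alone was 68.3%, 58.1% and 51.9% of these sums.

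**Figure D1:**
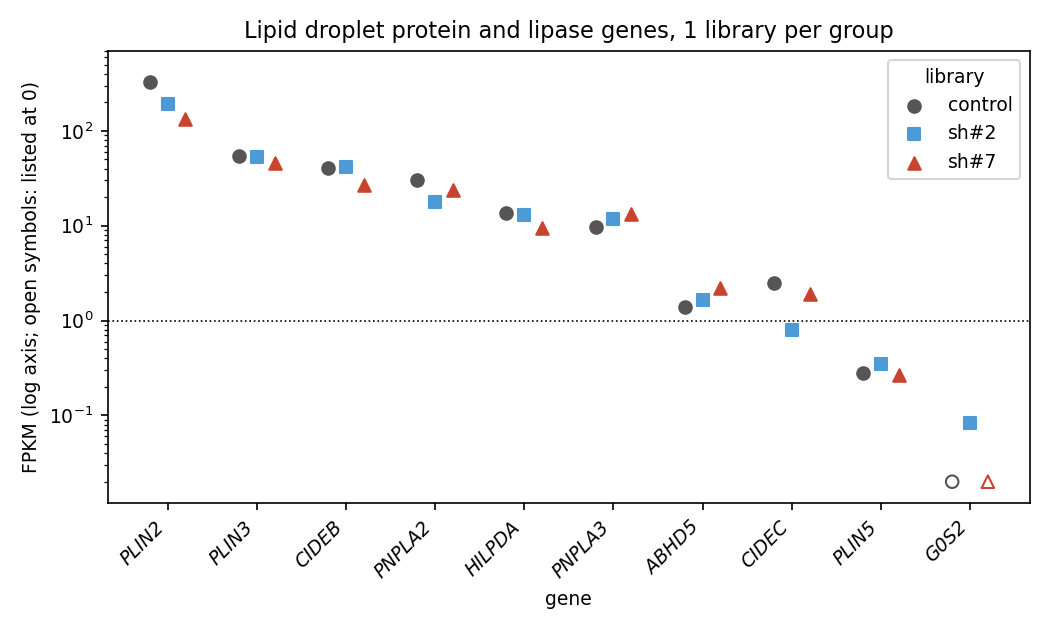
Expression of the 10 genes, ordered by mean level, on a log axis of FPKM, with 1 symbol per library. Filled symbols are measured values, open symbols mark G0S2 listed at 0, and the dotted line is 1 FPKM. PLIN2 lay highest in every library, at 331, 193 and 134 FPKM.

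Differences between libraries were computed as log2(FPKM + 1), which understates differences of low genes, for the 11069 genes whose mean over the libraries reached 1 FPKM. Of the 10 genes, 8 passed this filter, and PLIN5 and G0S2 did not. In sh#7 against the control, PLIN2 was the only one past 2-fold, and it was lower. In that comparison 2.48% of all compared genes were lower and 2.35% were higher by at least 2-fold. In sh#2 against the control none passed 2-fold, against 0.723% of all compared genes lower and 0.506% higher. In sh#7 against sh#2 none passed it, where 1.52% of all compared genes were lower and 1.45% were higher. At a lower threshold of 1.5-fold, PLIN2, PNPLA2 and CIDEC were lower in sh#2 than in the control, 3 of the 8, where 2.72% of all compared genes were lower and 2.67% higher. At that threshold PLIN2 was again the only one in sh#7 against the control (background 6.18% lower and 9.61% higher). That count depends on the added 1 FPKM and the scaling: as plain ratios CIDEB at 66.1% and ABHD5 at 161% of the control also passed 1.5-fold, and after median-of-ratios scaling CIDEB (-0.75) and HILPDA (-0.66) did. That scaling shifted the median of all compared genes by -0.15 in sh#7. The share of all compared genes past 1.5-fold under these settings is not given here, so the added genes have no background. In sh#7 against sh#2 at 1.5-fold, CIDEB was lower and CIDEC higher (background 4.55% and 5.14%). The median difference of the 8 was -0.29 in sh#7 and -0.07 in sh#2, beside 0.16 and 0.10 for all compared genes. In each line 6 of the 8 lay below the median of all compared genes and 2 above it. The comparisons of sh#7 and sh#2 with the control share the control library, so their values are given side by side and are not counted as repeats of each other.

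**Figure D2:**
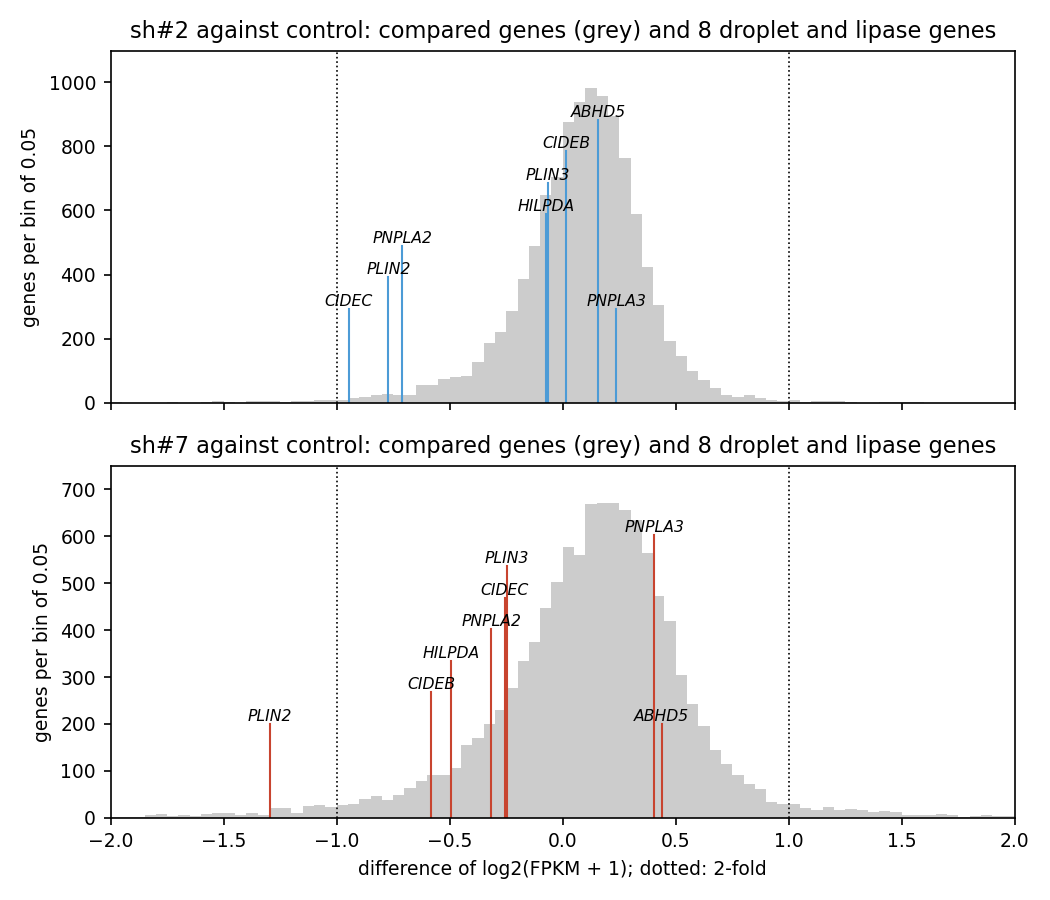
Distribution of the log2(FPKM + 1) difference from the control over 11069 compared genes (grey bars, in bins of 0.05, drawn from -2 to 2), with the 8 compared droplet and lipase genes as labelled lines. Line height has no meaning, and the dotted lines mark 2-fold. PLIN2 lay at -0.77 in sh#2 and -1.29 in sh#7.

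PLIN2 was lower in both knockdown lines and lowest in sh#7. It stood at 331 (control), 193 (sh#2) and 134 FPKM (sh#7). The sh#2 level was 58.5% of the control (interval 57.3 to 59.6) and the sh#7 level 40.6% (39.7 to 41.5). The log2 difference was -0.77 in sh#2 and -1.29 in sh#7, and 1.47% and 1.32% of all compared genes had a lower value in the same comparison. In a bulk library, fewer cells that express a gene and less RNA per cell cannot be told apart.

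The sequence before the start of PLIN2 is shown because PLIN2 alone was past 2-fold, and that before PNPLA2 because it encodes the lipase and was also lower in both lines. Both come from RefSeq on GRCh38.p14 and hold the 250 bases before the annotated start, 5′ to 3′ on the gene's strand. PLIN2 lies on the minus strand at chr9:19127493-19127742 and PNPLA2 on the plus strand at chr11:818664-818913. Capitals mark ACGTG, a form of the core of the hypoxia response element, on either strand. The other form, GCGTG, was not searched for and is left in small letters, as in the PLIN2 sequence.
PLIN2: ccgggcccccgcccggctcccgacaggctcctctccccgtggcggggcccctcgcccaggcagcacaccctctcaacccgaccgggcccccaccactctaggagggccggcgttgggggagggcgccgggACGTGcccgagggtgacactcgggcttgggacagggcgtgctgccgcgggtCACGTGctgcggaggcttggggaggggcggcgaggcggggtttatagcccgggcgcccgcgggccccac
PNPLA2: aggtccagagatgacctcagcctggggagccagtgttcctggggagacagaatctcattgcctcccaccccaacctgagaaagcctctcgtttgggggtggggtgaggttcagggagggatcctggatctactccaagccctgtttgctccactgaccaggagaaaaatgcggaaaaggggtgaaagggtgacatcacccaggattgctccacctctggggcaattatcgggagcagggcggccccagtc

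The PLIN2 sequence held ACGTG at 120 bases before the start and again, on both strands, within CACGTG at 69 bases before it. CACGTG is the core E-box, to which factors such as MLX and MLXIPL can bind, and it contains ACGTG. Promoter windows were given for 8 of the 10 genes (not for HILPDA and PNPLA3), as 12 windows of 300 bases that run from 250 before to 50 after a start. Among these 8 genes, PLIN2 alone held ACGTG or CACGTG, while 21.4% and 7.26% of all 35116 windows held them. The exact direct repeat bound by PPAR and RXR (DR1, AGGTCA in repeat with 1 base between) was in none of the 12 windows and in 0.0228% of all. The windows were not searched for GCGTG, so these shares do not cover every form of the hypoxia core. A match describes letters only, and binding was not measured.

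PLIN3, a coat protein that moves from the cytosol to small droplets, was close to the control in sh#2 and slightly below it in sh#7. It stood at 54.9 (control), 52.5 (sh#2) and 46.2 FPKM (sh#7). These were 95.6% (interval 91.2 to 100.2) and 84.1% (80.0 to 88.3) of the control. PLIN5, which tethers droplets to mitochondria in tissues that burn fat, was at 0.277, 0.348 and 0.270 FPKM. With 10 to 14 estimated fragments per library its interval ran from 52.1% to 301% of the control in sh#2 and from 34.8% to 237% in sh#7, and a difference was not detectable at this depth. The adipocyte perilipins were low as well, with PLIN1 at 0.0557, 0.0770 and 0.0318 FPKM and PLIN4 at 0.621, 1.16 and 1.11 FPKM.

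The make-up of perilipin RNA therefore differed between the libraries. PLIN2 accounted for 85.6% of the summed FPKM of PLIN1 to PLIN5 in the control (interval 85.1 to 86.0), 78.2% in sh#2 (77.5 to 78.8) and 73.8% in sh#7 (73.1 to 74.6). PLIN3 made up 14.2%, 21.2% and 25.4%. Together PLIN1, PLIN4 and PLIN5 stayed under 1% of the family in each library. These shares are ratios within a library, so a common scaling of a library does not move them. The summed level of the family was 387 FPKM (control), 247 (sh#2) and 182 (sh#7).

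The CIDE proteins sit at contacts between droplets and pass lipid from smaller to larger ones, and CIDEB, the form typical of liver, also acts in the loading of lipid onto very low density lipoprotein (VLDL). CIDEB stood at 40.9 (control), 41.3 (sh#2) and 27.0 FPKM (sh#7). In sh#7 it was 66.1% of the control (interval 62.2 to 70.1), a log2 difference of -0.58 that 6.24% of compared genes lay below. In sh#2 it was 101% of the control (95.9 to 107), and the sign of that small difference turned negative under median-of-ratios and upper-quartile scaling. In GENCODE release 29, 61.1% of the exon bases of CIDEB overlap NOP9 and 39.9% overlap LTB4R2, both on the opposite strand. NOP9 was at 25.1, 32.4 and 24.7 FPKM and LTB4R2 at 0.530, 0.853 and 0.932 FPKM. The sources used here do not say whether counting used strand, so how reads were divided between CIDEB and NOP9 is uncertain.

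CIDEC, which drives the growth of large droplets and is high in fat cells and fatty liver, was lowest in sh#2. It stood at 2.47 (control), 0.800 (sh#2) and 1.91 FPKM (sh#7). In sh#2 this was 32.4% of the control (interval 20.4 to 48.8), and only 0.795% of compared genes had a lower difference. In sh#7 it was 77.1% (55.7 to 107), an interval that includes the control level, and sh#7 was at 238% of sh#2 (155 to 384). The log2(FPKM + 1) difference of -0.95 in sh#2 did not pass 2-fold, and it did with a pseudocount of 0.1 (-1.51) or after median-of-ratios scaling (-1.03). CIDEC rested on 91, 30 and 70 estimated fragments. CIDEA, the form found in brown fat, was listed at 0 in the control and lay at 0.0246 and 0.0252 FPKM in sh#2 and sh#7. CIDEB made up 94.3%, 98.0% and 93.3% of the summed FPKM of the 3 CIDE genes.

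**Figure D3:**
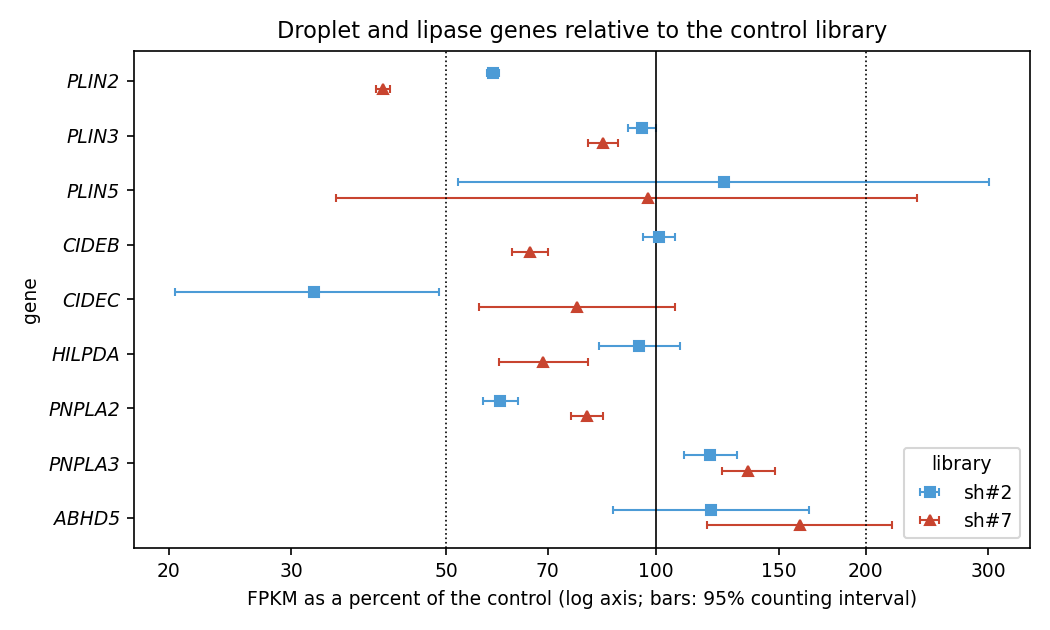
FPKM of 9 genes in sh#2 (squares) and sh#7 (triangles) as a percent of the control library, on a log axis, with 95% counting intervals as bars. The solid line is the control level and the dotted lines are 50% and 200%. PLIN2 and PNPLA2 lay below the control in both lines, and PNPLA3 above it in both, with intervals that left out the control level. PLIN3, CIDEC and HILPDA were also below it in both, and ABHD5 was above it in both. Their intervals included the control level in sh#2 (PLIN3, HILPDA and ABHD5) or in sh#7 (CIDEC). G0S2 is not drawn because the control was at 0.

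PNPLA2, the lipase of the first step, was lower in both lines, and here sh#2 was the lower of them. It stood at 30.1 (control), 18.0 (sh#2) and 24.0 FPKM (sh#7). The sh#2 level was 59.8% of the control (interval 56.5 to 63.4) and the sh#7 level 79.6% (75.5 to 84.0). In sh#2 its log2 difference of -0.71 was close to the -0.77 of PLIN2, and 1.74% of compared genes lay below it. In sh#7 the difference was -0.32, which 12.6% of compared genes lay below. PNPLA2 and CIDEC were thus lower in sh#2 than in sh#7, while FTO was lower in sh#7.

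PNPLA3, a paralogue of PNPLA2 on hepatocyte droplets that is induced by feeding through SREBP-1c, lay above the control in both lines. It stood at 9.79 (control), 11.7 (sh#2) and 13.3 FPKM (sh#7). These were 119.7% (interval 109.6 to 131) and 136% (124.5 to 148) of the control. Relative to the median of all compared genes, the log2 differences of 0.24 and 0.41 became 0.13 and 0.25. SREBF1, which encodes SREBP-1, was at 13.9, 15.7 and 24.2 FPKM, and a link between it and PNPLA3 was not tested. In GENCODE, 4.58% of the exon bases of PNPLA3 overlap SAMM50 on the same strand, and SAMM50 was at 51.9, 61.3 and 48.8 FPKM.

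ABHD5, the co-activator of PNPLA2, was low but higher in sh#7 than in the control. It stood at 1.38 (control), 1.66 (sh#2) and 2.23 FPKM (sh#7). In sh#7 this was 161% of the control (interval 118 to 218), and in sh#2 119.8% (86.9 to 166), an interval that includes the control level. On the log2 scale the differences were 0.44 and 0.16, which 81.2% and 59.4% of compared genes lay below.

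Of the inhibitors, HILPDA was detected and G0S2 was not measurable. HILPDA, a small droplet protein induced by hypoxia and by fatty acids, stood at 13.6 (control), 12.9 (sh#2) and 9.38 FPKM (sh#7). In sh#7 it was 68.9% of the control (interval 59.5 to 80.0), and in sh#2 94.6% (82.8 to 108), which includes the control level. The log2 difference of -0.49 in sh#7 was one that 7.63% of compared genes lay below. G0S2 was listed at 0 in the control and in sh#7 and was at 0.0823 FPKM in sh#2, which is about 3 fragments. A floor was set at 3 fragments, which is a level of 0.0826 FPKM for the control and of 0.0829 FPKM for sh#7. No library exceeded 3 fragments, so no fold is given. This floor is a set limit and not the upper bound of the 95% interval that is used for ratios.

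The partners of PNPLA2 were set against it within each library, so all these ratios share PNPLA2 as the denominator. PNPLA2 itself was at 59.8% of the control in sh#2 and 79.6% in sh#7. In sh#2 the intervals of ABHD5 and HILPDA as a percent of the control included the control level. The FPKM ratio of ABHD5 to PNPLA2 was 0.0460 in the control (interval 0.0359 to 0.0581), 0.0921 in sh#2 (0.0737 to 0.114) and 0.0930 in sh#7 (0.0761 to 0.112). The ratio was higher in both lines than in the control beyond counting error. The ratio of PNPLA3 to PNPLA2 was 0.325 in the control (0.302 to 0.350), 0.651 in sh#2 (0.604 to 0.701) and 0.555 in sh#7 (0.517 to 0.594), again higher in both lines. HILPDA was different: its ratio was 0.453 in the control (0.409 to 0.500), 0.716 in sh#2 (0.644 to 0.795) and 0.391 in sh#7 (0.347 to 0.442). The sh#2 interval lay above the other two, and those of the control and sh#7 overlapped. G0S2 was at most 0.00338 of PNPLA2 in the control and 0.00426 in sh#7 by the upper bound of the interval. With 1 FPKM added to both levels, 6 of the 12 ratios left their interval, and those of ABHD5 became 0.0767, 0.140 and 0.129. All are ratios of RNA, and protein was not measured.

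**Figure D4:**
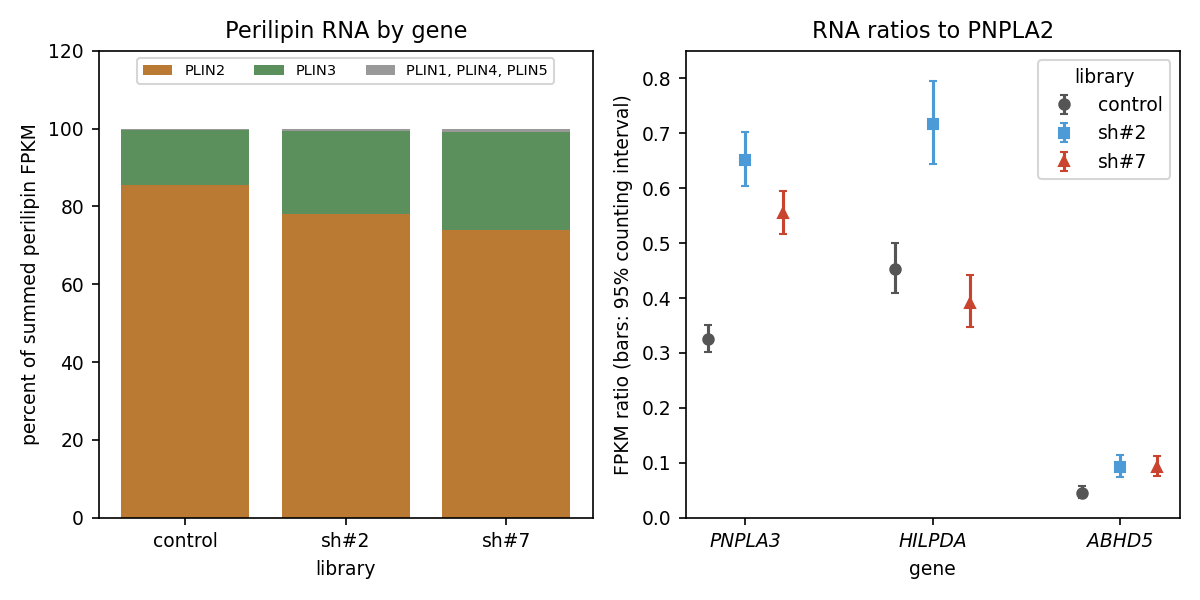
Left, percent of the summed FPKM of PLIN1 to PLIN5 taken by each gene in each library, where PLIN2 goes from 85.6% in the control to 73.8% in sh#7. Right, FPKM of PNPLA3, HILPDA and ABHD5 divided by that of PNPLA2 in the same library, with 95% counting intervals. ABHD5 and PNPLA3 had higher ratios in both lines, and HILPDA in sh#2.

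Other coat and droplet formation genes showed no difference past 2-fold. Of 20 such genes in the table, 13 were compared and 0 passed 2-fold in either line (all compared genes: 2.48% lower and 2.35% higher in sh#7, 0.723% and 0.506% in sh#2). List medians were 0.17 in sh#7 and 0.08 in sh#2 beside 0.16 and 0.10 for all compared genes. The highest by mean over the libraries was ACSL3, an acyl-CoA synthetase needed for new droplets, at 107, 96.1 and 54.0 FPKM. Its log2 difference of -0.97 in sh#7 passed 2-fold under median-of-ratios and upper-quartile scaling, where the count became 1. The share of all compared genes under those scalings is not given here. AUP1, a droplet protein of ubiquitin-dependent degradation, was at 74.6, 80.5 and 78.9 FPKM, above ACSL3 in sh#7, as was AIFM2 at 93.5 FPKM. BSCL2, which encodes the droplet assembly protein seipin, was listed at only 0.383, 0.440 and 0.800 FPKM. The read-through gene HNRNPUL2-BSCL2 overlaps 40.6% of the exon bases of BSCL2. It was listed at 50.1, 42.2 and 47.6 FPKM, so the BSCL2 level is uncertain.

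Among other lipid hydrolases, 13 of 22 were compared. In sh#7, 2 were higher and 0 were lower by at least 2-fold (all compared genes: 2.35% and 2.48%), and in sh#2, 1 was higher (0.506%). PNPLA8, at 4.96, 4.43 and 2.16 FPKM, had a log2 difference of -0.92 in sh#7, and the count lower became 1 with a pseudocount of 0.1 and after median-of-ratios or upper-quartile scaling. No share of all compared genes is given for those settings. List medians were 0.16 and 0.06. CES1, a liver carboxylesterase that hydrolyses triglyceride in the endoplasmic reticulum, stood at 65.1 (control), 207 (sh#2) and 277 FPKM (sh#7). LIPC, the secreted hepatic lipase, was at 8.55, 8.59 and 22.8 FPKM, above the others in sh#7 only. ABHD12, a lysophospholipid hydrolase, was at 53.9, 63.8 and 76.0 FPKM. The enzymes that follow PNPLA2 in fat cells were nearly absent here: in the control library LIPE and MGLL were at 0.00587 and 0.00541 FPKM, and both lines listed them at 0.

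Genes of triglyceride synthesis and VLDL assembly went both ways in sh#7. Of 16 compared, 2 were higher and 2 lower by at least 2-fold in sh#7 (all compared genes: 2.35% and 2.48%), and 0 in sh#2 (0.506% and 0.723%). List medians were 0.09 in sh#7 and 0.10 in sh#2. GPAM, the first acyltransferase of glycerolipid synthesis, was at 9.48, 17.5 and 32.4 FPKM. DGAT2, which makes triglyceride in the last step, was at 29.0, 51.5 and 73.3 FPKM. MTTP, which transfers lipid onto APOB, was at 16.0, 15.1 and 1.86 FPKM, and SOAT2, which makes cholesteryl ester, was at 14.4, 9.65 and 4.53 FPKM. APOB itself was at 337, 354 and 273 FPKM, and the acyltransferase gene AGPAT1 at 60.7, 55.7 and 53.5 FPKM.

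Of 19 compared factors and kinases that act on droplet genes, 2 were lower and 0 were higher by at least 2-fold in sh#7 (all compared genes: 2.48% and 2.35%). In sh#2, 0 passed it (0.723% and 0.506%). The count higher in sh#7 became 2 with a pseudocount of 0.1 and 1 after TPM rescaling. With the same pseudocount the count lower in sh#7 became 3. No share of all compared genes is given for those settings. HIF1A, the alpha subunit of HIF-1, was close to 2-fold at 29.5, 38.3 and 59.8 FPKM, and PRKACB, a catalytic subunit of protein kinase A, was at 1.55, 1.33 and 3.30 FPKM. The list medians were 0.00 and 0.06. PPARG, the fat cell regulator that controls PLIN2 and CIDEC among others, stood at 20.6 (control), 15.2 (sh#2) and 9.16 FPKM (sh#7). CREB3L3, a liver factor of fasting metabolism, was at 8.94, 7.30 and 3.10 FPKM. The highest of the list by mean were PRKAR1A, a regulatory subunit of protein kinase A, at 116, 154 and 92.4 FPKM, and EPAS1, the hypoxia factor HIF-2 alpha, at 54.6, 61.0 and 73.0 FPKM.

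Other targets of PPARA, the fatty acid receptor that also acts on PLIN2, mostly lay below the median of all genes. Of 13 compared, 9 were below it in sh#7 and 12 in sh#2. In sh#7, 1 was past 2-fold lower and 2 were higher (all compared genes: 2.48% and 2.35%). In sh#2, 2 were lower and 1 was higher (0.723% and 0.506%). The 2 higher in sh#7 became 1 after median-of-ratios or upper-quartile scaling, for which no share of all compared genes is given. The list medians were -0.26 and -0.17. FABP1, the liver fatty acid binding protein, stood at 6167 (control), 2415 (sh#2) and 208 FPKM (sh#7). ACSL1, a synthetase of acyl-CoA, was at 10.5, 25.9 and 26.4 FPKM, and HADHA, a subunit of the trifunctional protein, at 154, 156 and 147 FPKM. Hypoxia targets other than HILPDA and PLIN2 were all below the median of all genes in both lines, 22 of 22. That median was above 0 (0.16 in sh#7 and 0.10 in sh#2), so a gene below it need not lie below the control. ANKRD37, for example, was at 6.89, 7.01 and 2.31 FPKM. Of the 22, 11 were past 2-fold lower in sh#7 (all compared genes: 2.48%) and 2 in sh#2 (0.723%), with 0 higher in either. This list was chosen with earlier results of these data known, so its counts are a description only. The list medians were -0.94 and -0.55. BNIP3, a mitophagy receptor, was at 273, 139 and 75.2 FPKM, SLC2A1, a glucose transporter, at 228, 118 and 83.4 FPKM, and CA9, a carbonic anhydrase, at 42.8, 25.9 and 17.8 FPKM. With log2 differences of -0.49 in sh#7 and -0.07 in sh#2, HILPDA lay above the median of that list in both lines. PLIN2, at -1.29 and -0.77, lay below it in both.

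**Figure D5:**
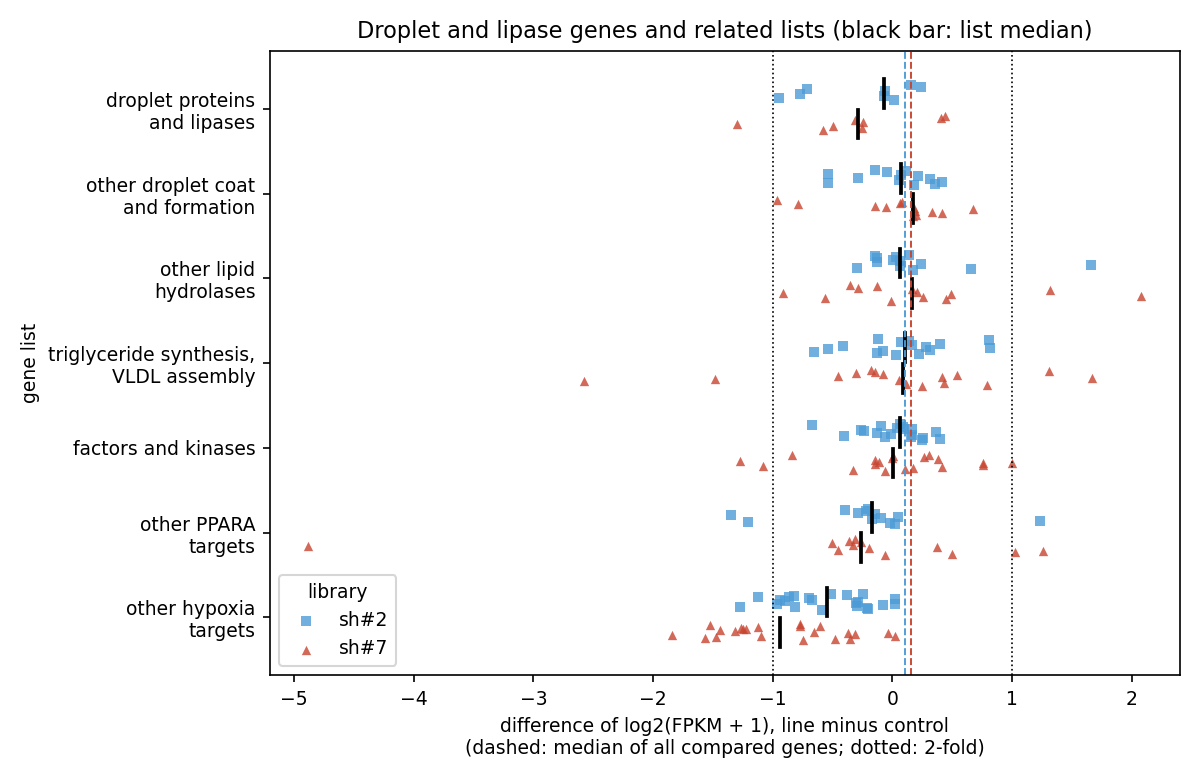
Difference of log2(FPKM + 1) from the control for the compared genes of each list, with sh#2 as squares and sh#7 as triangles and black bars at list medians. Dashed lines are the medians of all compared genes, 0.10 in sh#2 and 0.16 in sh#7, and dotted lines are 2-fold. Hypoxia targets lay to the left of the dashed lines in both lines. Of the 8 compared droplet and lipase genes, 6 lay to the left and 2 to the right in each line.

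The genes whose pair of differences lay nearest to that of PLIN2, among the 8164 genes whose mean reached 5 FPKM, were AKAP12, ANXA2, RNASET2 and IER3, at distances of 0.05, 0.08, 0.08 and 0.09 log2 units. ANXA2, a membrane-binding annexin, was at 109.7, 67.7 and 44.7 FPKM. Likeness over 3 libraries is weak, and 19 genes lay within 0.2.

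Other cell types and the hepatocyte state were read beside these values. Of the 9 hepatocyte markers, 6 were past 2-fold lower in sh#7 (all compared genes: 2.48%) and 2 in sh#2 (0.723%). In sh#2 ALB, APOA1, FGB and HNF4A lay at or above the control, with log2 differences from 0.01 to 0.27. ALB stood at 5468, 5501 and 1947 FPKM and APOA2 at 6168, 3424 and 2877 FPKM. Of the 7 macrophage and blood markers, 3 were listed at 0 in each library, PTPRC and HBB in all of them. Their summed level was 3256 FPKM (control), 1353 (sh#2) and 321 (sh#7), almost all of it LYZ, and CD68, a lysosomal protein, was at 39.2, 30.8 and 23.3 FPKM. Of the 9 stellate cell and fibroblast markers, 5 were listed at 0 in each library, including COL1A2, COL3A1, DCN and LUM. Their sums were 44.0, 35.4 and 52.8 FPKM, mostly ACTA2 at 40.2, 33.6 and 51.5 FPKM. PDGFRB went the other way in sh#7, past 2-fold lower, at 3.76, 1.69 and 0.616 FPKM. The part of these markers in the droplet gene values was not tested.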

How the data were processed

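The authors deposited 1 table of FPKM values, with a row per gene symbol and a column per library. The submitters' processing notes name hg19 and the tools Cufflinks 2.2.1, STAR 2.4.0j and HTSeq; their roles and the annotation are not given in the sources used here. Columns were assigned to samples by title. No count model was run because FPKM are normalized, and with 1 library per group no test was possible. Differences are log2(FPKM + 1) over genes whose mean reached 1 FPKM. The unit divides by the mapped total, and the 100 highest genes held 34.7%, 31.3% and 29.0% of all FPKM in the control, sh#2 and sh#7.

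Depth came from the 1-fragment step of genes with a single transcript over 800 nt in GENCODE release 29. Fragments were then estimated with the shortest basic protein-coding transcript of at least 700 nt, which widens intervals; these lengths are newer than the authors' build. Calculations (Python 3.11.15, numpy 2.4.6, pandas 2.3.3, scipy 1.17.1, matplotlib 3.10.9) were checked on simulated data. The genes and lists were chosen with earlier results of these data known. Genes named were FTO, the 10 members, list genes past 2-fold in a line (mean of 1 FPKM or more), the 2 highest of each list by mean, and the 4 nearest to PLIN2; SREBF1, NOP9, LTB4R2, SAMM50, BSCL2, HNRNPUL2-BSCL2, PLIN1, PLIN4, CIDEA, LIPE, MGLL, AIFM2, PNPLA8, HIF1A, PRKACB, the genes with opposite differences in the lines and markers listed at 0 were added after values were seen. Not every gene that the rule takes is printed. Alternatives were a pseudocount of 0.1, no filter, a minimum of 5 FPKM, 3 scalings and 1.5-fold.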

Additional observations from a re-analysis of the deposited data

Results flagged for a closer look

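In 4 compared genes of the lists set beside the droplet and lipase genes, the lines differed from the control in opposite directions by at least 1.25-fold each, a difference that was not tested. CPT1A, which carries fatty acids released by lipases into mitochondria, stood at 6.54 (control), 2.27 (sh#2) and 14.3 FPKM (sh#7), and the log2 difference of sh#7 minus sh#2 was 2.23. PRKAR1A was at 116, 154 and 92.4 FPKM, and its log2 difference of sh#7 minus sh#2 was -0.73. AGPAT9, a glycerol-3-phosphate acyltransferase also called GPAT3, stood at 4.43, 2.45 and 6.31 FPKM, a log2 difference of sh#7 minus sh#2 of 1.08. METTL7A, a droplet-associated protein, stood at 21.3, 14.3 and 28.7 FPKM, a log2 difference of 0.95. Of the 8 compared droplet and lipase genes, none met this rule. The share of all compared genes that meets it is not given here, so these counts have no background.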

How the results depend on the processing

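No paired analysis was possible because there is 1 library per group; for the same reason no replicate could be left out. PLIN2 was past 2-fold lower in sh#7 under every alternative run, from -1.21 after rescaling to TPM to -1.47 after median-of-ratios scaling. In sh#2 the count of the 10 genes past 2-fold lower went from 0 to 1, CIDEC, with a pseudocount of 0.1 and after median-of-ratios, upper-quartile or TPM scaling. The share of all genes past 2-fold under those settings is not given here. At 1.5-fold the count was 3 (background 2.72%). In sh#7 against sh#2, 1 was higher with a pseudocount of 0.1 and 1 at 1.5-fold (background 5.14%), and 1 was lower at 1.5-fold (background 4.55%). Median-of-ratios scaling shifted the median of all compared genes by -0.15 in sh#7 and -0.10 in sh#2. Of 225 values of single genes, 181 were labelled the same (within their counting interval) and 44 moved. The 181 include 30 with no filter and 18 at a minimum of 5 FPKM, settings that cannot change the value of a single gene. G0S2 had no interval, and its values were labelled the same only where they were equal. PLIN2 in sh#7, the only difference past 2-fold in the main setting, did not change sign. Below 2-fold, the sign turned for CIDEB in sh#2 (median-of-ratios, upper-quartile and centring on the median), PLIN5 in sh#7 (TPM) and PLIN5 in sh#2 (centring), from values near 0. Hypoxia targets past 2-fold lower in sh#2 went from 2 to 5 after median-of-ratios scaling, to 4 after upper-quartile scaling and to 1 at a minimum mean of 5 FPKM, where fewer genes are compared. Both scalings shifted the median of all compared genes in sh#2, by -0.10 and -0.08. The share of all genes past 2-fold under these settings is not given here either. Centring on the median and ratios without a pseudocount were added after the data were seen. Depth limits CIDEC, ABHD5, PLIN5 and G0S2 most.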
